A study of Mus musculus with 6 samples.

Results

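The matrix that surrounds the mammary epithelium was followed through 10 genes: the collagen chain genes Col1a1, Col1a2, Col3a1, Col5a1 and Col6a3, and Fn1, Sparc, Postn, Dcn and Timp1. They were chosen by name, and 10 of 10 were found among the 17739 gene symbols of the deposited expression table. The RNA came from 3 FVB mice with a conditional knockout of Nmi, labelled Nmi-/-, and from 3 wild-type FVB mice, all taken on lactation day 1, with 1 library of mammary epithelial organoids per mouse. The series asks how loss of Nmi, a partner of the transcription factors N-myc and STAT, relates to excess growth of the mammary epithelium. Organoids are clumps of epithelium set free here from mammary glands with collagenase I and Pronase and enriched by brief spins, so cells and matrix of the stroma are depleted but not removed by design. No source used here gives the Cre driver or the deleted part of Nmi. The unit is FPKM, in which fragments are divided by transcript length and library total, so levels of different genes can be set side by side, but only roughly. The reference gene Gapdh had 0 to 0.0769 FPKM over all libraries, while Actb, another reference gene, had 480.6 to 1494.5 FPKM. A low value in this table thus need not mean little RNA of that gene, and the reason was not tested.

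Fibrillar collagens are rope-like proteins of the connective tissue, mainly made by fibroblasts, and each molecule is a triple helix of chains. Type I collagen combines the Col1a1 and Col1a2 chains, type III collagen is built of Col3a1 chains alone, and type V collagen, to which Col5a1 belongs, starts and limits the width of the fibrils. Type VI collagen forms beaded filaments near cells, and Col6a3 is its longest chain. Fibronectin (Fn1), SPARC, periostin (Postn) and decorin (Dcn) join, bind or space these fibres, and TIMP1 inhibits the metalloproteinases that cut them. In the lactating gland the alveoli sit on a basement membrane, a thin sheet with type IV collagen, next to contractile myoepithelial cells, and the fibrillar matrix lies outside it.

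The targeted gene went with the labels. Nmi (chromosome 2 of GRCm38, 51948487 to 51973494, minus strand) had 0.188, 0.547 and 0.564 FPKM in the knockout libraries and 4.595, 2.82 and 2.32 FPKM in the wild-type libraries. Milk transcripts filled much of each library: 8 milk protein genes held 60.3% to 72.7% of the FPKM sum in the knockout and 44.7% to 66.2% in wild type. The labelled epithelial cells were present, with Krt18 between 210 and 908 FPKM in the knockout and between 719 and 1627 FPKM in wild type. Of 9767 genes tested between the genotypes with limma (p-values adjusted by Benjamini-Hochberg), 0 passed an adjusted p of 0.05 and 130 had an unadjusted p under 0.05, 18 higher and 112 lower in the knockout. Nmi itself did not pass, with a log2 fold change of -1.54 (unadjusted p = 3.8e-05, adjusted p = 0.372, limma). A gene that misses the adjusted threshold here thus need not be unchanged.

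Sparc was by far the most abundant of the matrix genes and the other 9 followed in a wide range of levels. Averaged over the 6 libraries, Sparc had 140.7 FPKM, Postn 43.7 FPKM, Col3a1 16.2 FPKM, Timp1 12.3 FPKM, Dcn 9.99 FPKM, Col1a1 8.77 FPKM, Col1a2 7.34 FPKM, Col6a3 2.16 FPKM, Fn1 1.70 FPKM and Col5a1 1.54 FPKM. In every library Sparc was higher than Postn, and Postn higher than Col3a1. The ranges of the 5 genes from Col3a1 to Col1a2 overlapped over the libraries, as did those of Col6a3, Fn1 and Col5a1. Together the 10 genes summed to 178, 353 and 189 FPKM in knockout replicates 1, 2 and 3, against 332, 281 and 135 FPKM in wild-type replicates 1, 2 and 3. Sparc and Postn made up 65.4% to 77.4% of that sum in the knockout and 75.8% to 79.8% in wild type. These are bulk samples, so fewer cells of a type and less RNA per cell cannot be told apart.

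**Figure D1:**
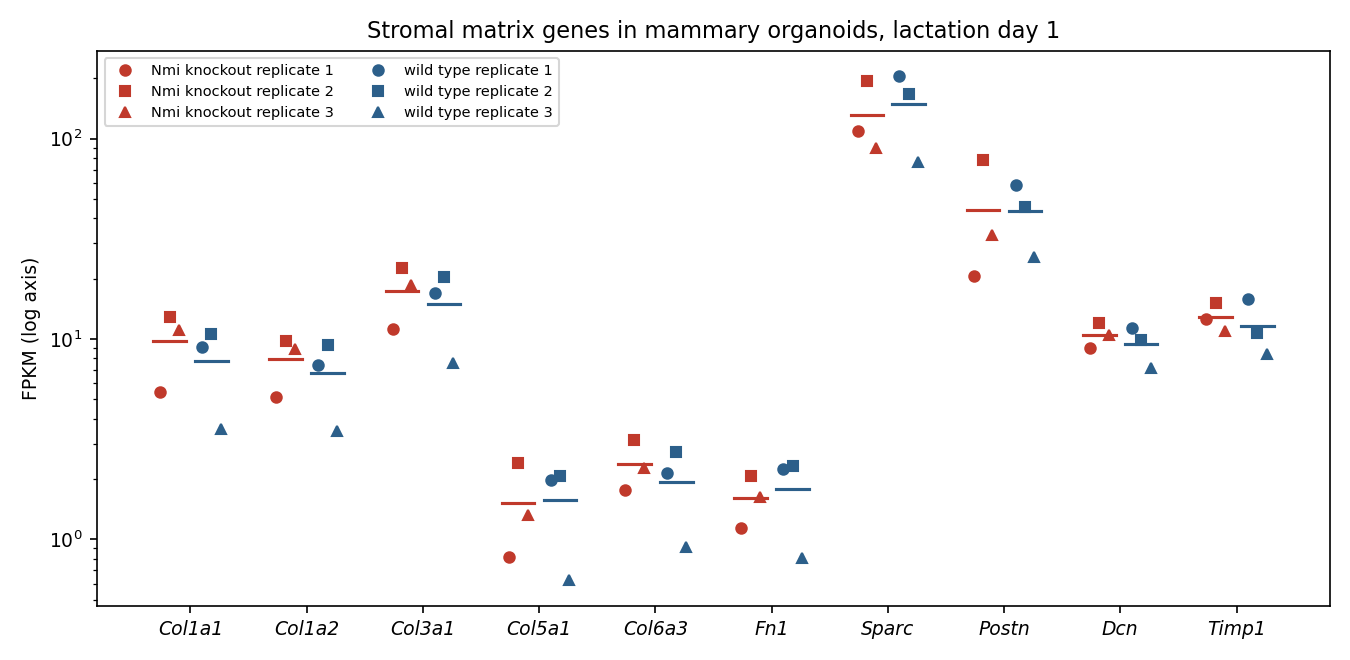
FPKM on a log axis of the 10 matrix genes in each library, with Nmi knockout mice (red) left of wild-type mice (blue) and a bar at each group's mean of 3 mice. The groups overlap for each of the 10 genes (4.61% of all tested genes did not overlap), and wild-type replicate 3 is the lowest library for 9 of them.

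The type I and type III collagen genes varied almost as one from mouse to mouse, and both genotypes covered much of the same range. Col1a1 (ENSMUSG00000001506.10, chromosome 11 of GRCm38, 94936224 to 94953042, plus strand) had 5.45, 12.8 and 11.1 FPKM in knockout replicates 1, 2 and 3, against 9.13, 10.6 and 3.53 FPKM in wild-type replicates 1, 2 and 3. Col1a2 (chromosome 6, 4504814 to 4541544, plus strand) had 5.16, 9.73 and 8.96 FPKM in the knockout, against 7.45, 9.28 and 3.49 FPKM in wild type. Col3a1 (chromosome 1, 45311538 to 45349706, plus strand, 141 of its 9816 exonic bases shared with Gm47302 on the same strand) had 11.2, 22.5 and 18.6 FPKM in the knockout, against 17.0, 20.3 and 7.56 FPKM in wild type. For all 3 genes knockout replicate 2 was highest, wild-type replicate 3 lowest and knockout replicate 1 second lowest, so each genotype held 1 low library. The means were 9.79 ± 3.85 FPKM in the knockout and 7.76 ± 3.73 FPKM in wild type for Col1a1, 7.95 ± 2.45 and 6.74 ± 2.96 FPKM for Col1a2, and 17.4 ± 5.73 and 15.0 ± 6.61 FPKM for Col3a1 (SD, n = 3 each, knockout first). These differences were smaller than the SD within either group.

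The ratio of Col3a1 to Col1a2 stayed nearly constant. It was 2.18, 2.31 and 2.08 in knockout replicates 1, 2 and 3, against 2.28, 2.19 and 2.17 in wild-type replicates 1, 2 and 3, while either gene alone spanned a range of 2.98-fold (Col3a1) and 2.79-fold (Col1a2) over the same mice. The SD of the log2 ratio over the 6 libraries was 0.06. Ranked by that SD among 9765 tested genes above 0 in all libraries, Col1a2 was the first gene for Col3a1 and Col3a1 the first for Col1a2. For Col1a1 the first 2 genes were Col3a1 (SD 0.13) and Col1a2 (SD 0.15). The ratio of Col1a2 to Col1a1 ran from 0.759 to 0.946 in the knockout and from 0.816 to 0.987 in wild type. This is a description of 6 libraries that share the same scaling of values, and the ranking was made after the values had been seen.

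Because Col1a2 and Col3a1 moved together most closely, the 250 bases upstream of their starts are shown beside those of Postn and Timp1, which varied in other ways. The sequences and gene starts are those of RefSeq on GRCm38.p6, where 7 of the 10 genes were matched (Col1a1, Fn1 and Dcn were not). Both strands were searched for the CCAAT box, written CCAAT, for the TATA box, written TATAAA, for the GC box, written GGGCGG, and for the AP-1 site, written TGANTCA. No matches overlapped here, and capitals mark the matches on either strand. The windows lie at chr6:4505368-4505617 (plus strand) for Col1a2, chr1:45311288-45311537 (plus strand) for Col3a1, chr3:54360857-54361106 (plus strand) for Postn, the nearer of its 2 listed starts to the GENCODE gene, and chrX:20869916-20870165 (plus strand) for Timp1.
Col1a2: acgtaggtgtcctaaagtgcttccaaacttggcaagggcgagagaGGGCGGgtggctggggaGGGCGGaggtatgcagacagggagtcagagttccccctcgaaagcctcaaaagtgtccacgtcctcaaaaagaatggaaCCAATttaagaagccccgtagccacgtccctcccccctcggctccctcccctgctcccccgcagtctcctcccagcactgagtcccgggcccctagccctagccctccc
Col3a1: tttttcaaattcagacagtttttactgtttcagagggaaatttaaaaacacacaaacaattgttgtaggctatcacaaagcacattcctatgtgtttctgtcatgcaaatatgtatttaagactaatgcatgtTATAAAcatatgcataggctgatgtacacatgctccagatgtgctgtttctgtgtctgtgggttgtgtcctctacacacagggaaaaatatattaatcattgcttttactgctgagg
Postn: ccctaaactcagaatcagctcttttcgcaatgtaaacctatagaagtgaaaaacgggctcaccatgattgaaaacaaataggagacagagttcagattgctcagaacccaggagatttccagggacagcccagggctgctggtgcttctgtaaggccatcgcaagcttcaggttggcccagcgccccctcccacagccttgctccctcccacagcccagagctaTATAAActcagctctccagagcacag
Timp1: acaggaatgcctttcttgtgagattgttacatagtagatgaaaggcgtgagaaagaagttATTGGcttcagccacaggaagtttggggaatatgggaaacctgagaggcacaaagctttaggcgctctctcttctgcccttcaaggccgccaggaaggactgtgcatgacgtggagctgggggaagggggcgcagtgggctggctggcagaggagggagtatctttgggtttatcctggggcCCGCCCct

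The Col1a2 and Col3a1 windows shared none of the 4 motifs and differed in base composition, with 62.0% and 35.2% G and C. Col1a2 held GGGCGG at 183 to 188 and at 200 to 205 bases upstream and CCAAT at 105 to 109 bases upstream, whereas Col3a1 held TATAAA at 112 to 117 bases upstream. Postn held TATAAA at 21 to 26 bases upstream, and Timp1 held CCAAT, on the minus strand, at 186 to 190 and GGGCGG, also on the minus strand, at 3 to 8 bases upstream. Among all 32851 windows of this length, CCAAT was in 33.8%, GGGCGG in 32.7%, TATAAA in 12.4% and TGANTCA in 6.75%. Matches are descriptions of the letters in these windows. The RefSeq start of Col1a2 lies 804 bases downstream of the start of the GENCODE gene.

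Col6a3 and Col5a1, the chains of type VI and type V collagen, were low and followed the same order of mice in part. Col6a3 (chromosome 1, 90765923 to 90843971, minus strand) had 1.76, 3.13 and 2.27 FPKM in the knockout libraries, against 2.14, 2.72 and 0.918 FPKM in the wild-type libraries. Col5a1 (chromosome 2, 27886425 to 28039514, plus strand) had 0.812, 2.41 and 1.32 FPKM in the knockout, against 1.98, 2.08 and 0.623 FPKM in wild type. Both were highest in knockout replicate 2 and lowest in wild-type replicate 3. Col6a3 followed Col1a2 and Col1a1 in closeness to Col3a1, at rank 3 (SD of the log2 ratio 0.14). Col5a1 was closest to Lox (SD 0.13), whose enzyme crosslinks collagen, and then to Fn1 (SD 0.24). Lox had 0.453, 1.55 and 0.761 FPKM in the knockout and 1.06, 1.00 and 0.353 FPKM in wild type. In Col5a1, 212 of 8490 exonic bases also lie in genes of the opposite strand (2810430I11Rik and Gm13372), and no source used here says whether counting used the strand.

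Fn1, which encodes the adhesive protein fibronectin, was as low as the minor collagens. Fn1 (chromosome 1, 71585520 to 71653200, minus strand, 292 of its 11685 exonic bases shared with Apol7d on the other strand) had 1.13, 2.08 and 1.63 FPKM in the knockout libraries, against 2.24, 2.31 and 0.804 FPKM in the wild-type libraries. It was the only one of the 10 genes that was highest in wild-type replicate 2. Its ratio to Col1a1 within a library was 0.208, 0.162 and 0.147 in the knockout, against 0.246, 0.218 and 0.227 in wild type, so the groups did not overlap for this ratio. It is 1 of 9 ratios to Col1a1 that were compared, with an exact permutation p of 0.1 and an adjusted p of 0.45. With 1 added to each FPKM the groups overlapped, with an exact permutation p of 0.3.

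Sparc and Postn, which encode the collagen-binding protein SPARC and periostin, had less constant ratios to Col1a1, Col1a2 and Col3a1 than those 3 genes had to each other. Sparc (chromosome 11, 55394500 to 55423183, minus strand) had 109.8, 194 and 90.4 FPKM in the knockout libraries, against 206, 167 and 76.7 FPKM in the wild-type libraries. Knockout replicate 3 was among the 3 highest libraries for Col1a1, Col1a2 and Col3a1, but the second lowest for Sparc. The ratio of Sparc to Col1a1 was 20.2, 15.2 and 8.14 in the knockout, against 22.5, 15.8 and 21.7 in wild type. Sparc was far closer to the basement membrane collagen gene Col4a1, with a ratio of 2.74, 2.08 and 2.23 in the knockout and 2.22, 2.29 and 2.39 in wild type. The first 3 of 9765 genes in closeness to Sparc were Oaf (SD of the log2 ratio 0.07), Rcan1 (0.08) and Ly6c1 (0.09). Ly6c1 is on the list of fibroblast markers used here. Col4a1 stood 12th and Col4a2 13th in closeness to Sparc, the endothelial gene Pecam1 14th, and Col3a1 4326th.

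Postn had the widest spread of the 10 genes after Col5a1. Postn (chromosome 3, 54361109 to 54391037, plus strand) had 20.6, 78.6 and 33.1 FPKM in the knockout libraries, against 58.8, 45.6 and 25.8 FPKM in the wild-type libraries. The highest and the lowest value thus both came from knockout mice, 3.82-fold apart. The smooth muscle actin gene Acta2, a marker of myoepithelial cells, was ordered in the same way in the knockout, with 138, 724 and 169 FPKM, against 453, 386 and 222 FPKM in wild type. In closeness to Postn, Col4a2 stood at rank 32 of 9765 genes, Col4a1 at 40, Acta2 at 71, Col5a1 at 87, Krt14, another myoepithelial marker, at 757 and Col1a1 at 852.

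Dcn and Timp1 varied least. Dcn (chromosome 10, 97479609 to 97518143, plus strand), which encodes a proteoglycan that binds fibrils, had 9.03, 12.0 and 10.5 FPKM in the knockout libraries, against 11.3, 9.88 and 7.15 FPKM in the wild-type libraries. Timp1 (chromosome X, 20870166 to 20874735, plus strand, within the gene Syn1 of the other strand and sharing no exonic base with it) had 12.6, 15.1 and 11 FPKM in the knockout, against 15.8, 10.7 and 8.45 FPKM in wild type. Their ranges over the 6 libraries were 1.68-fold and 1.87-fold, against 2.68-fold to 3.87-fold for the other 8 genes. The ratio of Timp1 to Dcn was 1.39, 1.25 and 1.05 in the knockout and 1.39, 1.08 and 1.18 in wild type (SD of the log2 ratio 0.18).

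**Figure D2:**
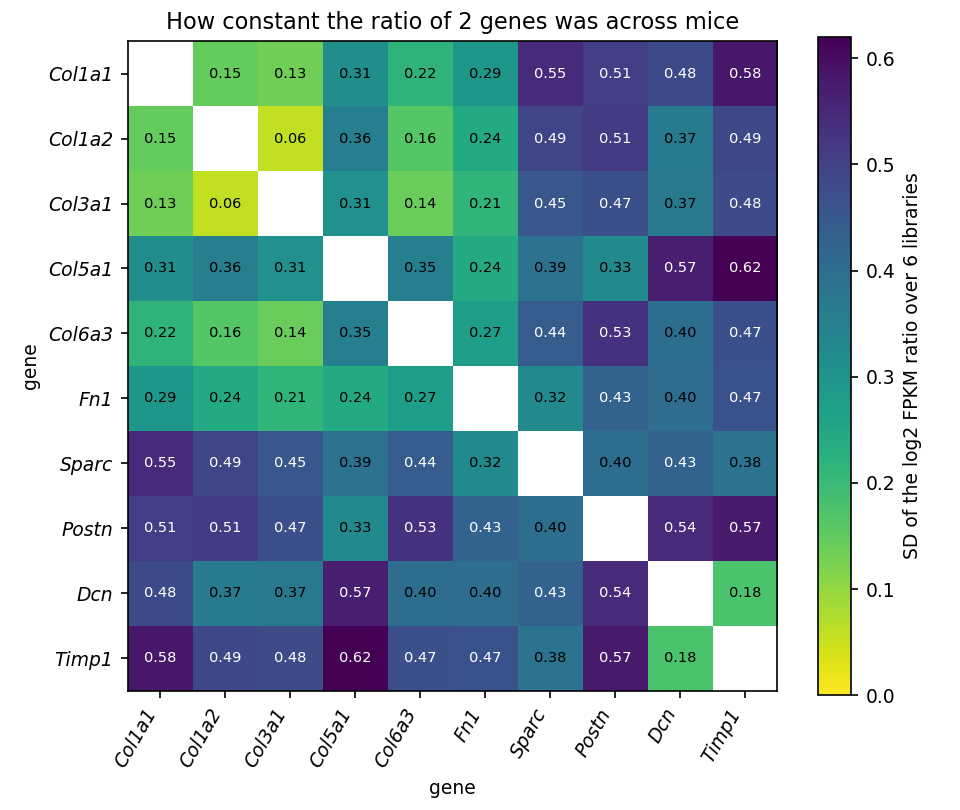
SD over the 6 libraries of the log2 ratio of FPKM for each pair of the 10 genes (colour and printed value), where a low value means a nearly constant ratio. Col1a1, Col1a2, Col3a1 and Col6a3 form a block of low values, 0.06 between Col1a2 and Col3a1, while Dcn and Timp1 pair with each other at 0.18.

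The order of mice for these genes was not the order seen for most genes. Knockout replicate 2 was the highest library for 7 of the 10 genes, but for 11.7% of all 9767 tested genes. Wild-type replicate 3 was the lowest for 9 of the 10, but for 10.8% of all. Most genes were highest in wild-type replicate 1 (63.5%) and lowest in knockout replicate 3 (65.8%), which held the smallest and the largest share of milk transcripts, 44.7% and 72.7%. Knockout replicate 3 was the lowest library for none of the 10 matrix genes. These counts describe genes that vary together and are no test.

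By the rule for likeness, 6 genes outside the lists came nearest to the mean pattern of Col1a1, Col1a2 and Col3a1 over the 6 libraries, measured as the root mean square difference of centred log2(FPKM + 1). They were Rnd1 (0.15), Fam83b (0.20), Il4ra (0.20), F2r (0.23), Plxnd1 (0.23) and Serpinf1 (0.24). Rnd1 had 4.06, 7.59 and 6.99 FPKM in the knockout and 7.08, 5.996 and 2.61 FPKM in wild type. Serpinf1, which encodes the secreted protein PEDF, had 2.60, 5.12 and 3.97 FPKM in the knockout and 5.03, 4.79 and 2.43 FPKM in wild type.

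Markers of other cells moved with the matrix genes in part. The summed FPKM of 11 myoepithelial markers was 472, 1653 and 487 in knockout replicates 1, 2 and 3, against 1237, 1010 and 569 in wild-type replicates 1, 2 and 3, with knockout replicate 2 highest as for Postn. The 18 basement membrane genes summed to 155, 316 and 147 FPKM in the knockout and 309, 260 and 135 FPKM in wild type. The 12 endothelial markers summed to 135, 183 and 92.6 FPKM in the knockout and 194, 177 and 96.3 FPKM in wild type, and 10 pericyte and smooth muscle markers to 34.5, 43.3 and 28.2 FPKM in the knockout and 35.3, 39.2 and 23.4 FPKM in wild type. The part of these cells in the matrix results was not tested.

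Markers of fibroblasts ran from near 0 to above the fibrillar collagens. Gsn, the highest, had 21.7 to 46.7 FPKM in the knockout and 31.2 to 69.9 FPKM in wild type, more than Col3a1 in every library. Pdgfra, a receptor used to mark fibroblasts, had 0.229 to 0.490 FPKM in the knockout and 0.284 to 0.819 FPKM in wild type. Thy1, a surface protein of fibroblasts and other cells, had 3.38, 10.1 and 2.85 FPKM in the knockout and 9.92, 8.13 and 2.07 FPKM in wild type. Of the 18 fibroblast markers, 4 passed the filter on low values (Thy1, Ly6c1, Gsn and Medag), and 0 were at 0 in all libraries. The list summed to 54.7, 80.1 and 39.2 FPKM in the knockout and 105, 71.1 and 43.8 FPKM in wild type, mostly from Gsn, which encodes an actin-severing protein that other cells make too. The 10 adipocyte markers summed to 356, 515 and 395 FPKM in the knockout and 704, 561 and 357 FPKM in wild type. Most of that sum was Fabp4, a fatty acid carrier also made by endothelial cells, with 157 to 440 FPKM in the knockout and 212 to 672 FPKM in wild type, and Lpl, which encodes lipoprotein lipase and is active in the lactating gland, with 72.5 to 237 FPKM in the knockout and 31.3 to 144 FPKM in wild type. Adipoq, the adipocyte hormone gene, had 0 to 0.0285 FPKM in the knockout and 0 to 0.0957 FPKM in wild type. The leukocyte gene Ptprc had 0.0647 to 0.303 FPKM in the knockout and 0.0486 to 0.0880 FPKM in wild type.

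**Figure D3:**
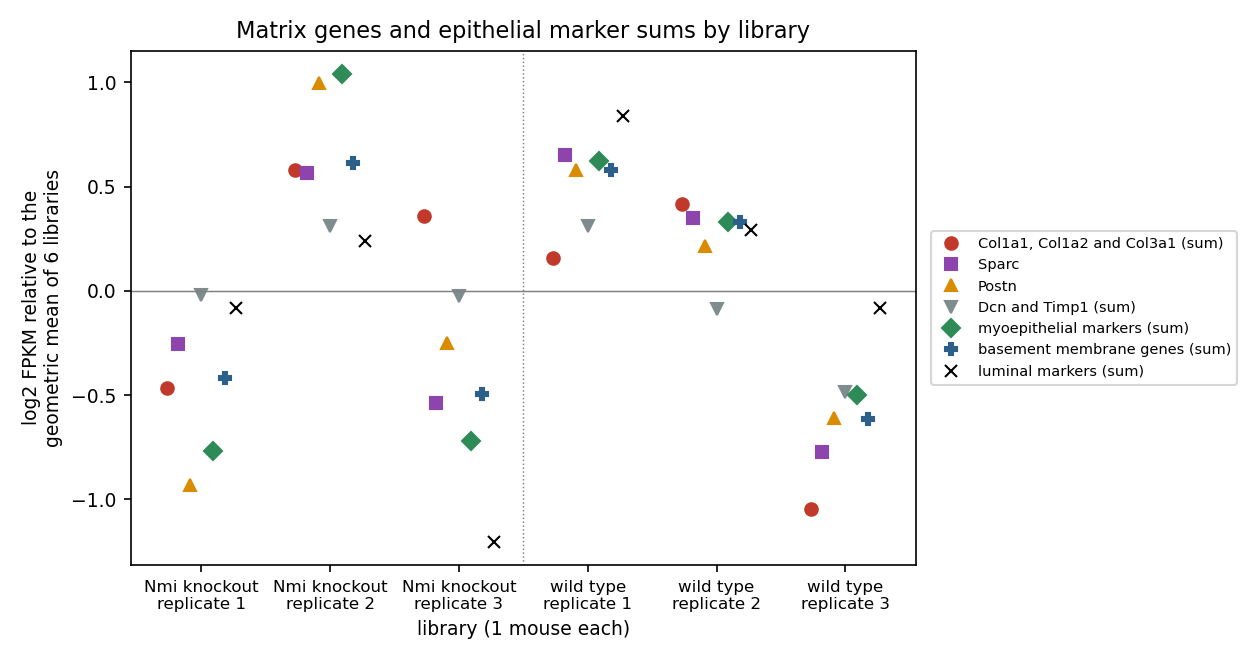
Log2 FPKM of matrix genes and of marker sums in each library, relative to the geometric mean of the 6 libraries, with the 3 Nmi knockout mice left of the 3 wild-type mice. In knockout replicate 3 the 3 fibrillar collagens lie above 0 while Sparc and the myoepithelial, basement membrane and luminal sums lie below it, and in wild-type replicate 3 all 7 series lie below 0.

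For none of the 10 genes did the difference between the genotypes pass the test. With limma over all 9767 tested genes, 0 of 10 passed the adjusted threshold of 0.05, as did 0% of all tested genes. An unadjusted p under 0.05 was found for 0 of 10, against 1.33% of all genes, 0.184% higher and 1.15% lower in the knockout. It was 1 of 10, Timp1, after trimmed-mean rescaling (unadjusted p = 0.0477, adjusted p = 0.869), after quantile normalization (0.0312 and 0.867) and with the milk share as covariate (0.0230 and 1.00, all limma). In these fits, in that order, 168, 177 and 78 of all 9767 genes had an unadjusted p under 0.05. Of those, 81, 86 and 55 were higher in the knockout. The groups were free of overlap for 0 of 10, against 4.61% of all genes, 0.778% higher and 3.83% lower in the knockout. The filter of 1 FPKM in at least 3 libraries kept 10 of 10. The smallest adjusted p by limma among them was 0.768, for Col6a3.

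On the log2(FPKM + 1) scale, which understates changes of low genes, 6 of the 10 had a positive fold change of the knockout over wild type and 4 a negative one. Col1a1 had the highest, 0.34 (SE 0.39, 95% confidence interval -0.52 to 1.20), followed by Col3a1 with 0.26 (SE 0.37), Col1a2 with 0.25 (SE 0.34) and Col6a3 with 0.25 (SE 0.27). Timp1 had 0.17 (SE 0.27) and Dcn 0.15 (SE 0.25). Sparc had the lowest, -0.15 (SE 0.42, 95% confidence interval -1.08 to 0.78), followed by Postn with -0.12 (SE 0.46, 95% confidence interval -1.13 to 0.90), Fn1 with -0.06 (SE 0.26) and Col5a1 with -0.02 (SE 0.30). Intervals of this width leave room for a difference of 1 on the log2 scale in Col1a1, Col3a1, Sparc and Postn.

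The median over the 10 genes was 0.16, against -0.21 over all tested genes, and 10 of 10 lay above that median. After trimmed-mean rescaling both medians were higher, -0.036 for all genes and 0.36 for the 10 genes, with 10 of 10 positive. The count above the median of all genes was 6 of 10 without wild-type replicate 3 (median of all genes -0.32), 8 of 10 without knockout replicate 2 (-0.31) and 2 of 10 with library quality weights (-0.14). Without wild-type replicate 3 all 10 fold changes were negative, with a median of -0.12, so the positive sign of 6 of them depended on that mouse being included. Without knockout replicate 2, Postn moved to -0.63 and Sparc to -0.47, and Col1a1 to 0.12. Neither removal brought a call for any of the 10 genes (smallest adjusted p by limma 0.509 when wild-type replicate 3 was left out, and 0.414 when knockout replicate 2 was).

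**Figure D4:**
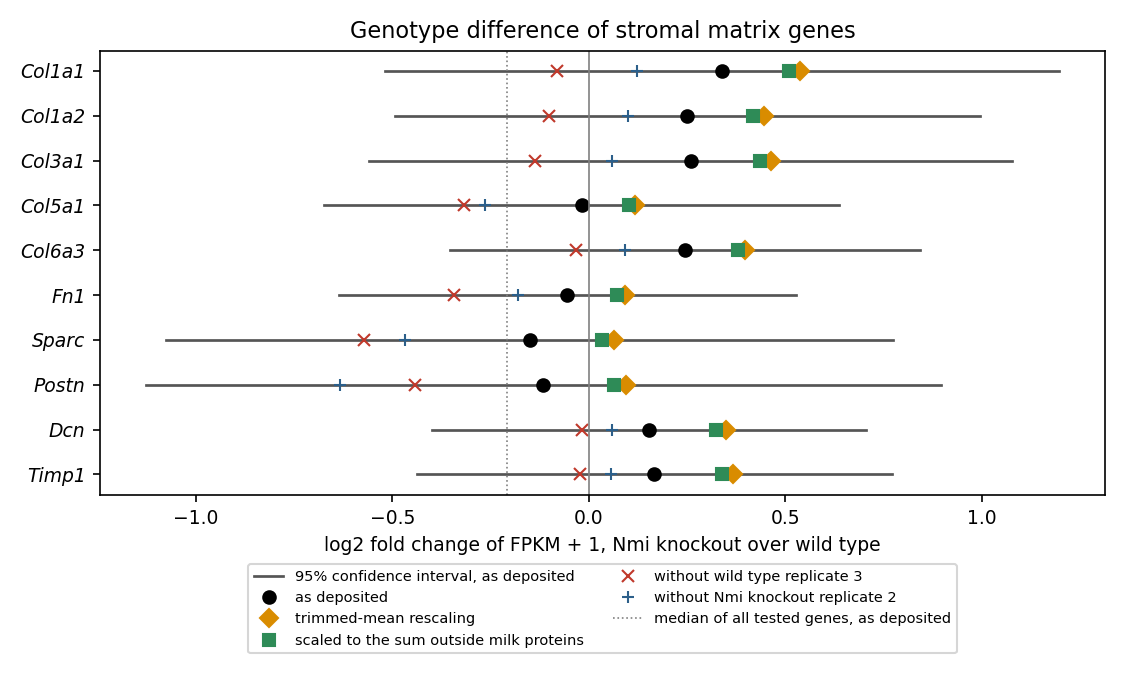
Log2 fold change of FPKM + 1, Nmi knockout over wild type, for the 10 genes, with the 95% confidence interval of the values as deposited (n = 3 mice each) and the values under 2 rescalings and after removal of either knockout replicate 2 or wild-type replicate 3. All 10 intervals include 0, and without wild-type replicate 3 all 10 values lie below 0.

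Ratios within a library do not depend on its scaling and were compared for the 9 other genes against Col1a1. None of the 9 passed the test, and since all share Col1a1, the gene with the highest fold change of the 10, their common direction is not 9 separate results. Without wild-type replicate 3 the differences for Dcn and Timp1 were 0.081 and 0.077, against -0.22 and -0.21 with all mice. The mean log2 ratio of Fn1 to Col1a1 was -2.55 ± 0.26 in the knockout and -2.12 ± 0.09 in wild type (SD, n = 3 each), a difference of -0.43, with an exact two-sided permutation p of 0.1 and an adjusted p of 0.45 over the 9 ratios. That is the smallest p that 3 against 3 mice allow, so no ratio could reach 0.05. On FPKM + 1 the difference for Fn1 was -0.39 (exact permutation p = 0.3). The mean log2 ratio of Sparc to Col1a1 was 3.76 ± 0.67 in the knockout and 4.30 ± 0.28 in wild type, a difference of -0.54 (exact permutation p = 0.2), and of -0.18 without knockout replicate 3. The mean log2 ratio of Postn to Col1a1 was 2.04 ± 0.53 in the knockout and 2.55 ± 0.40 in wild type (exact permutation p = 0.2).

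Among other collagens of the stroma no gene passed the test. Of 15 listed genes 7 were tested, 0 passed the adjusted threshold and 0 had an unadjusted p under 0.05, and their median log2 fold change was 0.05. With the milk share as covariate 1 of 7 was higher with an unadjusted p under 0.05 (0.0368, limma), against 55 of all 9767 genes. Col6a1, which joins Col6a3 in type VI collagen, had 9.63, 16.3 and 8.29 FPKM in the knockout and 16.9, 11.7 and 5.80 FPKM in wild type. Its ratio to Col6a3 was 5.48, 5.202 and 3.65 in the knockout, against 7.94, 4.30 and 6.32 in wild type, so the chains of one collagen did not keep a constant ratio as Col1a2 and Col3a1 did. Col6a2 had 6.41, 14.8 and 6.54 FPKM in the knockout and 14.7, 10.3 and 4.15 FPKM in wild type. Col5a3 had the smallest p of the list, with 1.27 ± 0.689 FPKM in the knockout and 1.00 ± 0.383 FPKM in wild type (SD, n = 3 each).

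The basement membrane genes, which encode the sheet under the epithelium, did not pass the test either. Of 18 genes 15 were tested, 4 with a positive and 11 with a negative fold change, or 8 and 7 after trimmed-mean rescaling, 0 passed the adjusted threshold and, as deposited, 0 had an unadjusted p under 0.05. Higher at that level was 1 of 15 after quantile normalization (0.0486) and with the milk share as covariate (0.0293, both limma). Of all 9767 genes, 86 and 55 were higher at that level in these fits. The type IV collagen gene Col4a1 had 40.1, 93.3 and 40.4 FPKM in the knockout, against 92.5, 73.0 and 32.1 FPKM in wild type, and was thus higher than any fibrillar collagen gene in every library. Lama5, a laminin chain, had 17.3 ± 6.87 FPKM in the knockout and 23.7 ± 5.14 FPKM in wild type (SD, n = 3 each), with the smallest p of the list. The median of the list was -0.17, against -0.21 for all genes.

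Genes that make and crosslink collagen did not pass either, with 0 of 18 tested past the adjusted threshold and, as deposited, 0 with an unadjusted p under 0.05. After trimmed-mean rescaling, scaling to the sum outside milk proteins or quantile normalization, or with the milk share as covariate, 1 of 18 was higher at that level. The smallest unadjusted p was 0.0105, 0.0120, 0.0125 and 0.0132 (limma). Of all 9767 genes, 81, 64, 86 and 55 were higher at that level in these fits. P4hb and Ppib, general folding enzymes of the secretory pathway that also serve collagen, were the highest. P4hb had 219 ± 37.6 FPKM in the knockout and 210 ± 7.11 FPKM in wild type (SD, n = 3 each). Ppib had 109 ± 29.1 FPKM in the knockout and 125 ± 24.3 FPKM in wild type. Plod2, a lysyl hydroxylase of collagen, had 1.43 ± 0.320 FPKM in the knockout and 2.499 ± 1.38 FPKM in wild type, where wild-type replicate 1 had 4.02 FPKM. P3h2, a prolyl hydroxylase, was the one gene of the list whose groups did not overlap, with 15.8, 15.1 and 14.4 FPKM in the knockout, against 12.5, 12.6 and 10.7 FPKM in wild type. That is 1 of 18 tested genes, against 4.61% of all tested genes, 0.778% higher in the knockout, and it was named after its values had been seen.

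Matrix proteases and their inhibitors, matrix receptors, and proteoglycans, elastic fibres and matricellular proteins had negative medians as deposited. Of 14 tested proteases and inhibitors 4 were positive and 10 negative, of 20 receptors 2 and 18, and of 18 proteoglycan, elastic fibre and matricellular genes 6 and 12, with 0 in each list past the adjusted threshold and 0 with an unadjusted p under 0.05. After trimmed-mean rescaling, scaling to the sum outside milk proteins or quantile normalization, 1 of 20 receptors was higher at that level (0.0454, 0.0448 and 0.0493, limma). Of all 9767 genes, 81, 64 and 86 were higher at that level in these fits. Timp2, an inhibitor related to Timp1, had 28.6, 58.3 and 12.6 FPKM in the knockout, against 57.4, 56.0 and 51.4 FPKM in wild type, so the spread was much wider in the knockout. Its log2 fold change was -0.96 (SE 0.44, unadjusted p = 0.0538, adjusted p = 0.768, limma). Timp3 had 21.6 ± 6.86 FPKM in the knockout and 21.3 ± 5.89 FPKM in wild type (SD, n = 3 each). The matricellular gene Thbs1 had 248, 256 and 53.2 FPKM in the knockout, against 293, 250 and 191 FPKM in wild type, and Ctgf had 86.3 ± 31.9 FPKM in the knockout and 136 ± 103 FPKM in wild type.

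Among matrix receptors, the collagen receptor gene Ddr1 had 25.5, 34.2 and 13.6 FPKM in the knockout, against 57.3, 35.2 and 29.4 FPKM in wild type. Its log2 fold change was -0.74 (SE 0.37, adjusted p = 0.768 by limma). The integrin gene Itgb1 had 91.2 ± 44.1 FPKM in the knockout and 117 ± 33.5 FPKM in wild type, and the syndecan gene Sdc4 had 182 ± 47.7 FPKM in the knockout and 203 ± 15.8 FPKM in wild type (SD, n = 3 each). Median fold changes were -0.18 for the proteases and inhibitors, -0.24 for the receptors and -0.12 for the proteoglycans and matricellular genes, against -0.21 for all genes. After trimmed-mean rescaling 7 proteases and inhibitors were positive and 7 negative, 7 and 13 receptors, and 11 and 7 proteoglycan and matricellular genes, and with the milk share as covariate 8 and 6, 14 and 6, and 15 and 3. After trimmed-mean rescaling the 3 medians were -0.0023, -0.095 and 0.061, so that of the proteoglycans and matricellular genes turned positive.

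Lists of other cell types were tested in the same fit, and 0 genes passed the adjusted threshold in any of them. All 7 tested pericyte and smooth muscle markers had positive fold changes (median 0.11), also after trimmed-mean rescaling (median 0.24). The log2 ratio of their summed FPKM was 0.11 with all mice, but -0.059 without knockout replicate 2 and -0.076 without wild-type replicate 3. Rgs5, a pericyte marker, had 15.4 ± 3.29 FPKM in the knockout and 14.8 ± 5.18 FPKM in wild type (SD, n = 3 each). All 11 myoepithelial markers were negative as deposited (median -0.31), but 4 were positive after that rescaling and 10 with the milk share as covariate. As deposited, the medians were -0.13 for 12 endothelial, -0.22 for 4 fibroblast, 0.17 for 3 adipocyte and -0.04 for 3 Schwann cell markers. That of 8 milk proteins was 0.38, against -0.21 for all genes. After trimmed-mean rescaling these medians were, in that order, 0.060, -0.026, 0.29, 0.15 and 0.59, against -0.036 for all genes. With the milk share as covariate they were 0.22, 0.34, 0.077, 0.26 and -0.011, against -0.0019 for all genes.

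In the myoepithelial list Trp63, a basal cell transcription factor, was 1 of 11 with an unadjusted p under 0.05 (0.0437, adjusted p = 0.768, limma), against 1.33% of all genes, 1.15% lower. It had 2.25, 2.81 and 1.81 FPKM in the knockout, against 9.22, 3.29 and 2.94 FPKM in wild type, so the groups did not overlap (4.61% of all genes, 3.83% lower) and wild-type replicate 1 stood far above the others. After trimmed-mean rescaling, scaling to the sum outside milk proteins or quantile normalization, or with the milk share as covariate, 0 of 11 had an unadjusted p under 0.05. The smallest p in these fits was 0.0610, 0.0587, 0.0631 and 0.163 (limma). Of the macrophage and leukocyte genes, C1qb, a complement subunit made by macrophages, had 1.59, 2.72 and 4.99 FPKM in the knockout, against 0.830, 2.07 and 1.51 FPKM in wild type. Cd68, a lysosomal protein of macrophages, had 5.03, 5.64 and 3.35 FPKM in the knockout, against 6.92, 6.84 and 6.94 FPKM in wild type, without overlap and in the other direction. Cd68 was the 1 negative gene of the 4 tested in that list, and 3 were positive (median 0.56). Of the 13 listed genes in the table, 8 stayed under 1 FPKM in all libraries. The part of these cells in the matrix values was not tested.

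**Figure D5:**
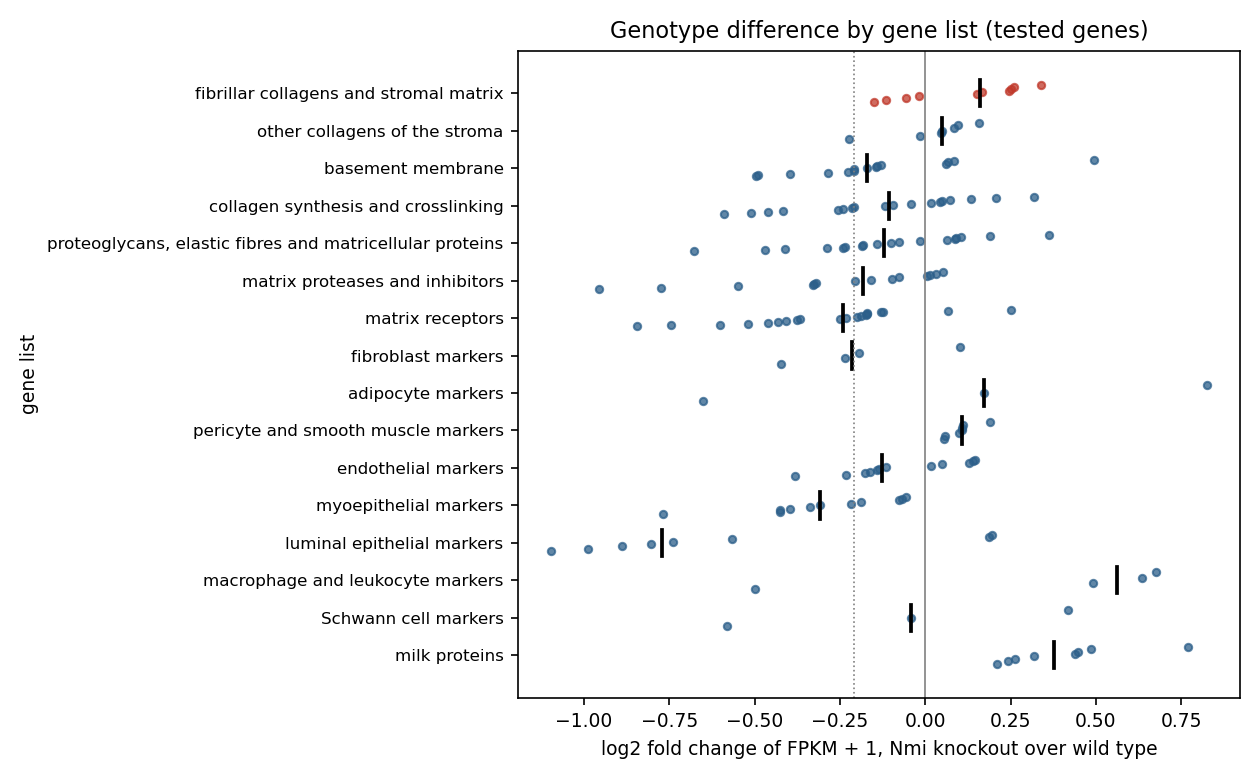
Log2 fold change of FPKM + 1, Nmi knockout over wild type, for the tested genes of each list, 1 point per gene, with a black bar at the list's median, a grey line at 0 and a dotted line at the median of all tested genes (-0.21). The 10 matrix genes (red) lie between -0.15 and 0.34, the luminal markers have the lowest median, -0.77, and the 4 tested macrophage and leukocyte markers the highest, 0.56.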

How the data were processed

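The deposited table holds FPKM for 6 libraries, 1 per mouse, computed by the authors. The submitters' processing notes name FastQC, TopHat, SAMtools and Cufflinks, and the builds mm10 and GRCm38. Versions, strand setting and annotation: not given in the sources used here. Total depth is unknown. From 456 genes with low FPKM, relative depth was estimated at 0.976 to 1.13 times that of wild-type replicate 1, from a search limited to ratios near 1.

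Genes with at least 1 FPKM in at least 3 libraries were fitted on log2(FPKM + 1) with limma 3.58.1 in R 4.3.3 (intensity trend, two-sided, Benjamini-Hochberg adjustment over 9767 genes, threshold 0.05). The fit was tested on simulated data, with noise drawn independently for each gene and library. Such data lack the order of libraries that most genes share here, so that test cannot vouch for the fit on these libraries. Ratios to Col1a1 were compared by exact permutation. Alternatives changed the pseudocount, filter, scaling, weights, covariate or libraries. P-values measure only the spread between these mice, and limma draws each gene's spread toward that of genes of similar level. For genes of wide spread, such as Postn, Col1a1 and Sparc, the intervals are thereby narrower than the gene's own values would give. The 10 genes and 15 further lists (233 genes in the table) were chosen with earlier results of these data known. Named by rule were the 10, Nmi, the 2 highest genes and the 1 with the smallest p of each list, and 6 of most similar pattern; other names were chosen after their values were seen. Gene coordinates are GENCODE's on GRCm38.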

Additional observations from a re-analysis of the deposited data

How the results depend on the processing

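No paired analysis was possible because each mouse carries its own number and the groups share none. None of 15 alternatives gave an adjusted p under 0.05 for any of the 10 genes, and 13 of the 15 called 0 genes. Library quality weights called 2 and removal of wild-type replicate 1 with knockout replicate 3 called 1. With quality weights the log2 fold changes were -0.40 (Col1a1), -0.38 (Col1a2), -0.40 (Col3a1) and -0.18 (Col6a3), with a median of -0.39 over the 10 genes. These weights were estimated gene by gene, since the default estimate did not converge and gave knockout replicate 1 and wild-type replicate 2 weights of 39.2 and 27.6. A fit with those unconverged weights called 7740 of all 9767 genes, among them 10 of the 10. It rests almost wholly on 1 mouse per group, so its calls do not measure the spread between mice. It is not among the 15 alternatives. The weights used were 2.67 for knockout replicate 1, 5.50 for wild-type replicate 2 and 0.31 to 0.79 for the other libraries. The weighted fold changes thus rest mainly on knockout replicate 1 and wild-type replicate 2. Col5a1, Fn1, Sparc and Postn, in that order, turned positive with 0.12, 0.092, 0.064 and 0.094 after trimmed-mean rescaling, 0.14, 0.11, 0.058 and 0.10 after quantile normalization, 0.10, 0.072, 0.033 and 0.064 after scaling outside milk proteins, 0.28, 0.20, 0.42 and 0.36 with milk share as covariate, and 0.15, 0.067, 0.36 and 0.23 without wild-type replicate 1 and knockout replicate 3. The log2 ratio of Col6a3 to Col1a1 was -0.093 on FPKM + 1, against 0.016. Leaving out each mouse in turn gave -0.081 to 0.67 (Col1a1), -0.10 to 0.50 (Col1a2), -0.14 to 0.53 (Col3a1), -0.32 to 0.19 (Col5a1), -0.032 to 0.45 (Col6a3), -0.34 to 0.10 (Fn1), -0.57 to 0.13 (Sparc), -0.63 to 0.31 (Postn), -0.016 to 0.28 (Dcn) and -0.022 to 0.39 (Timp1). The causes were not tested. With 3 mice per group, 95% intervals of the 10 genes reached at least 0.55 (Dcn) either side of the fold change.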
